A study of Mus musculus with 12 samples.

Results

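The clustered protocadherins are 58 of the 18607 genes listed in the deposited expression tables of cultured mouse neurons. They were chosen by symbol alone, as the genes named Pcdha, Pcdhb or Pcdhg with a cluster number, and all 58 were listed in both tables. The alpha cluster gave 14 genes, 12 of them alternate genes (Pcdha1 to Pcdha12) and 2 of them C-type genes (Pcdhac1 and Pcdhac2). The beta cluster gave 22 genes. The gamma cluster gave 22 genes, of which 12 were of the A type, 7 of the B type and 3 of the C type (Pcdhgc3, Pcdhgc4 and Pcdhgc5). No gene was left out of the description for a low value. Levels are in FPKM, fragments scaled by transcript length and by the fragments mapped in the library. A mean of at least 1 FPKM was reached by 52 genes in the H-Ras(G12V) table and by 48 in the etoposide table, and only those were tested. In the H-Ras(G12V) table Pcdhb15 lay just inside that limit with a mean of 1.0 FPKM and Pcdhb13 just outside with 0.99.

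Clustered protocadherins are cadherin-like adhesion molecules of the neuronal surface that bind the same isoform on a facing membrane. Alpha, beta and gamma genes lie in tandem on a single chromosome. In the alpha and gamma clusters each variable exon has a promoter of its own and is spliced to constant exons that all genes of that cluster share, whereas each beta gene is a single exon. A neuron switches on a small set of alternate promoters through looping by CTCF and cohesin, with the unused promoters methylated, while C-type genes are used more uniformly. The resulting surface identity lets branches of the same neuron recognise and avoid each other, and the gamma cluster also supports neuronal survival and dendrite growth.

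The libraries came from primary neurons of C57BL/6 mice and were collected at day 10 of treatment, with 3 libraries in each of 4 groups. In the first model, neurons that over-expressed H-Ras(G12V), H-Ras locked in its active state by a point mutation, after delivery by an adeno-associated virus (AAV), were set against wild-type neurons given the fluorescent protein mCherry. In the second, wild-type neurons given etoposide, a drug that traps topoisomerase II on broken DNA, were set against wild-type neurons given its solvent DMSO. The study uses these as models of neuronal ageing and asks what they share. The promoter of the virus, the brain region and the age of the mice are not given in the sources used here. For the 6 etoposide and DMSO libraries the treatment tag names the opposite group to the title and library name. Groups follow the title and the column name here, so every direction is that of the libraries titled etoposide. The labels do not say whether replicate libraries are separate cultures, and p-values therefore describe the spread among the sequenced libraries alone, part of which may be technical.

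Libraries that stood apart from their group bear on most results. Whether mCherry library 3, DMSO library 3 and etoposide library 3 are mislabelled, mixed or true replicates cannot be told apart here. Group means and counts of called genes in both models depend on those libraries. All 16 neuron markers examined were at 1.95 FPKM or more in every library, the lowest being Dcx in etoposide library 1. Across all genes, mCherry libraries 1 and 2 had a rank correlation of 0.997 with each other but of 0.929 and 0.925 with mCherry library 3. DMSO libraries 1 and 2 correlated at 0.986 with each other but at 0.956 and 0.943 with DMSO library 3. In DMSO library 3, 11.1% of all genes tested were under 1/2 of the lowest other DMSO library. Etoposide library 3 correlated at 0.811 and 0.881 with etoposide libraries 1 and 2 and at 0.931 to 0.979 with the DMSO libraries. Nevertheless Sox10, a transcription factor of the oligodendrocyte lineage, was at 0.09, 0.14 and 0.01 FPKM in etoposide libraries 1, 2 and 3, against 18.8 to 25.4 in DMSO. Endogenous and delivered Hras cannot be told apart in these tables. The Hras level was 38.4, 51.6 and 33.5 FPKM in the H-Ras(G12V) libraries and 45.9, 43.0 and 44.2 in mCherry, and it did not pass the test (adjusted p = 0.624, limma), so it gives no check of the labels.

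How firmly a value belongs to its own gene differs between the clusters. In the GENCODE annotation, where 57 of the 58 genes were matched, the alpha transcripts shared 48.6% to 54.9% of their bases with another gene of the cluster and the gamma transcripts 13.4% to 45.5%. Of the 22 beta genes, all with 1 exon, 2 shared any bases, up to 9.67%. Fragments from constant exons could therefore be divided among alpha or gamma genes by the authors' estimation, and values of neighbouring genes in those clusters are not independent of each other.

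In the control cultures the gamma cluster gave most of the signal, and 1 gene, Pcdhgc3, led it. The levels are those of whole cultures, in which markers of astrocytes and of the oligodendrocyte lineage were also present. The summed level of the gamma genes was 241, 235 and 220 FPKM in mCherry libraries 1 to 3 and 249, 238 and 298 in the DMSO libraries. The beta sum was 63.4, 61.7 and 63.8 FPKM in mCherry and 67.1, 60.1 and 47.2 in DMSO. The alpha sum was 73.8, 78.3 and 36.9 FPKM in mCherry and 71.6, 68.9 and 39.7 in DMSO, and library 3 of each control group was far below the other 2. The mCherry and DMSO levels come from separate tables and are set side by side without a test. All 14 alpha genes were below both other controls in mCherry library 3, and all 14 were in DMSO library 3, where 48.2% and 40.5% of all genes tested were below both other controls. The rank order of the 58 genes in the mCherry and DMSO means had a Spearman correlation of 0.97, given as a description across genes.

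Pcdhgc3, a gamma C-type isoform known to promote dendrite branching, was the most abundant of the 58 genes by its mean in both control groups. It held 31.6% to 32.4% of the gamma sum in mCherry and 29.3% to 32.8% in DMSO. Within the alpha cluster Pcdhac2, needed for the even spread of serotonergic axons, held 23.3% to 29.8% of the sum in mCherry and 27.1% to 28.9% in DMSO. No beta gene dominated in that way. Pcdhb9 held 11.7% to 13.7% of the beta sum in mCherry and 14.6% to 17% in DMSO, and the beta signal was spread as evenly as over 14.3 to 16.0 equally abundant genes (the inverse Simpson number).

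**Figure D1:**
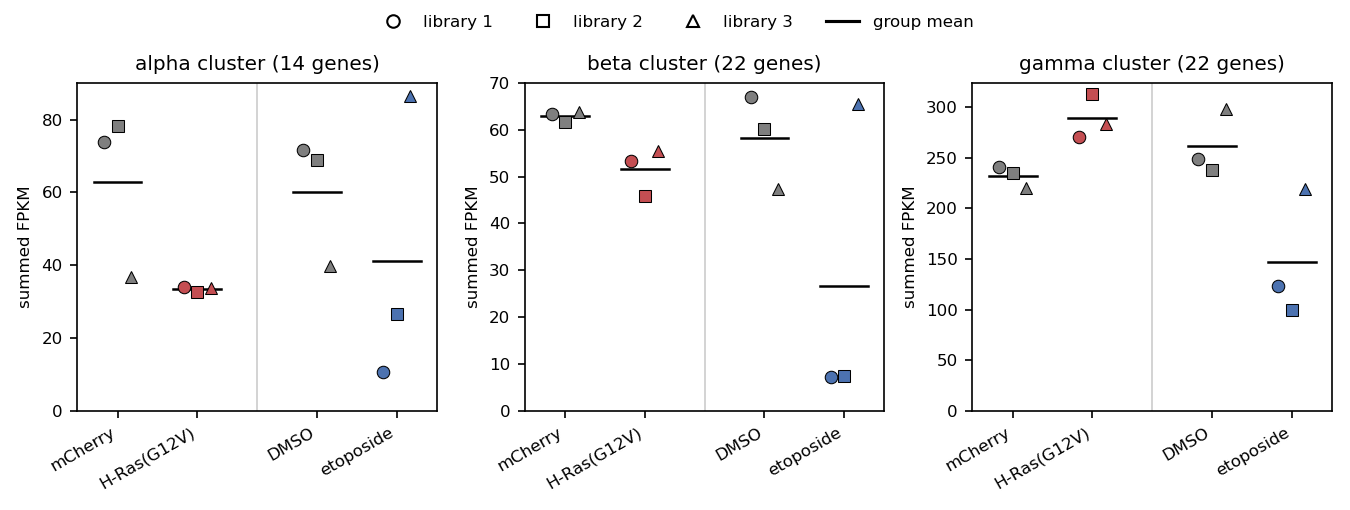
Summed FPKM of the 14 alpha, 22 beta and 22 gamma genes (vertical axes, starting at 0) in each of the 12 libraries, by group on the horizontal axis, with symbols for the library number and a bar for the group mean. Alpha sums are 32.6 to 33.95 FPKM in the H-Ras(G12V) libraries and 36.9 in mCherry library 3, and beta sums are 7.16 and 7.31 FPKM in etoposide libraries 1 and 2 but 65.6 in library 3.

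In cultures with H-Ras(G12V), 4 alternate alpha genes and 2 beta genes were lower than in mCherry, and the gamma genes Pcdhgc3 and Pcdhgb4 were higher. These 8 of the 52 genes tested passed an adjusted p of 0.05 (limma on log2(FPKM + 1), two-sided, Benjamini-Hochberg over all genes tested), where 17% of all 12724 genes tested passed. The 6 lower genes stand against a background of 6.67% called lower, and the 2 higher genes against 10.3% called higher. The other 44 genes tested did not pass. At an unadjusted p under 0.05 there were 17 of the 52, beside 34.4% of all genes tested. Of the 52 genes tested, 12 were lower and 3 were higher without overlap of the groups, beside 16.6% and 23.7% of all genes tested. Median log2 differences were -0.78 over the 11 alpha genes tested, -0.12 over 20 beta genes and -0.13 over 21 gamma genes, beside 0.05 over all genes tested.

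The H-Ras(G12V) effect on the alternate alpha genes was in the same direction throughout, since all 12 had a negative difference. Of all 18223 genes listed, 7645 had a negative difference, and the 12 genes share constant exons and libraries. Pcdha5, the alpha gene with the largest difference, was at 1.54, 1.57 and 1.33 FPKM in the H-Ras(G12V) libraries and at 5.69, 5.79 and 3.33 in mCherry. The groups did not overlap, and the log2 difference was -1.23 ± 0.20 (SE, n = 3 and 3, limma adjusted p = 0.0114). Pcdha4 was at 1.85, 1.60 and 1.52 FPKM against 5.36, 6.45 and 2.78 in mCherry (log2 difference -1.09 ± 0.26, adjusted p = 0.0318). Like Pcdha5, it encodes an alternate alpha isoform that reaches the surface together with beta or gamma partners. Pcdha3 was at 1.55, 1.38 and 1.92 FPKM against 5.32, 5.61 and 2.60 (log2 difference -1.03, adjusted p = 0.0355). Pcdha2 was at 1.02, 0.91 and 1.18 FPKM against 3.90, 4.19 and 1.65 (log2 difference -1.0, adjusted p = 0.0454). In all 4 genes mCherry library 3 was the lowest control, and it remained above every H-Ras(G12V) library.

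For other alpha genes the difference did not pass, and mCherry library 3 often lay within the H-Ras(G12V) range. Pcdha12 was at 4.08, 3.90 and 3.30 FPKM with H-Ras(G12V) and at 9.45, 8.90 and 3.91 in mCherry (adjusted p = 0.12). Pcdha9 was at 1.83, 2.12 and 2.76 FPKM against 6.88, 6.76 and 2.31 (adjusted p = 0.125). Among the 12 alternate alpha genes, mCherry library 3 was above all H-Ras(G12V) libraries for 6, within their range for 5 and below it for 1. Summed over the alternate alpha genes, the level was 19.98, 18.6 and 19.4 FPKM with H-Ras(G12V) and 54.1, 58.2 and 24.6 in mCherry. Number in the symbol and log2 difference had a Spearman correlation of 0.62 over the 12 genes, which share constant exons and libraries. With H-Ras(G12V) the same correlation was 0.30 for beta, -0.13 for gamma A and 0.29 for gamma B genes. With etoposide it was -0.23 for alternate alpha, -0.11 for beta, 0.04 for gamma A and 0.89 for gamma B genes. These are descriptions, and no trend along the clusters was tested.

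The alpha C-type genes did not pass. Pcdhac1, an isoform that does not reach the surface without a partner, was at 2.02, 1.60 and 1.82 FPKM with H-Ras(G12V) and at 1.72, 1.84 and 1.35 in mCherry, with overlapping groups (log2 difference 0.10, 95% interval -0.25 to 0.44, adjusted p = 0.683). Pcdhac2 was at 11.95, 12.4 and 12.5 FPKM against 17.9, 18.2 and 11.0 (log2 difference -0.30, 95% interval -0.76 to 0.17, adjusted p = 0.327). Here too mCherry library 3 was the low control and lay below all 3 H-Ras(G12V) libraries. Pcdhac2 made up 35.2% to 38.0% of the alpha sum with H-Ras(G12V), above every control library.

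Pcdhgc3 was higher with H-Ras(G12V), and it passed whichever of the 6 libraries was left out. It was at 122, 143 and 137 FPKM with H-Ras(G12V) (134 ± 10.9, SD, n = 3) and at 78.1, 74.8 and 69.4 in mCherry (74.1 ± 4.39, SD, n = 3). The groups were far apart, with a ratio of means of 1.81 and a log2 difference of 0.85 ± 0.12 (SE, limma adjusted p = 0.00684). Its share of the gamma sum was 45.2%, 45.8% and 48.3% with H-Ras(G12V), and that of mCherry never exceeded 32.4%. The summed level of the A and B types, which was not tested and which includes Pcdhgb4, did not have this direction. The sum was 115, 121 and 111 FPKM with H-Ras(G12V) and 145, 143 and 112 in mCherry.

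The remaining gamma C-type genes differed from Pcdhgc3 in pattern. Pcdhgc5, whose protein is known to bind GABA-A receptors, was at 24.4, 36.3 and 24.4 FPKM with H-Ras(G12V) and at 3.82, 4.06 and 30.6 in mCherry. Libraries 1 and 2 of mCherry were low, and mCherry library 3 was within the H-Ras(G12V) range, so the log2 difference of 1.65 ± 0.69 (SE) had an adjusted p of 0.142. Levels in DMSO, 17.4, 18.3 and 23.2 FPKM, were also well above those of mCherry libraries 1 and 2. Pcdhgc4, an isoform required for the survival of cortical interneurons, was at 8.80, 12.5 and 11.3 FPKM against 13.6, 13.3 and 7.91, with overlapping groups (log2 difference -0.07, 95% interval -0.60 to 0.47, adjusted p = 0.87).

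**Figure D2:**
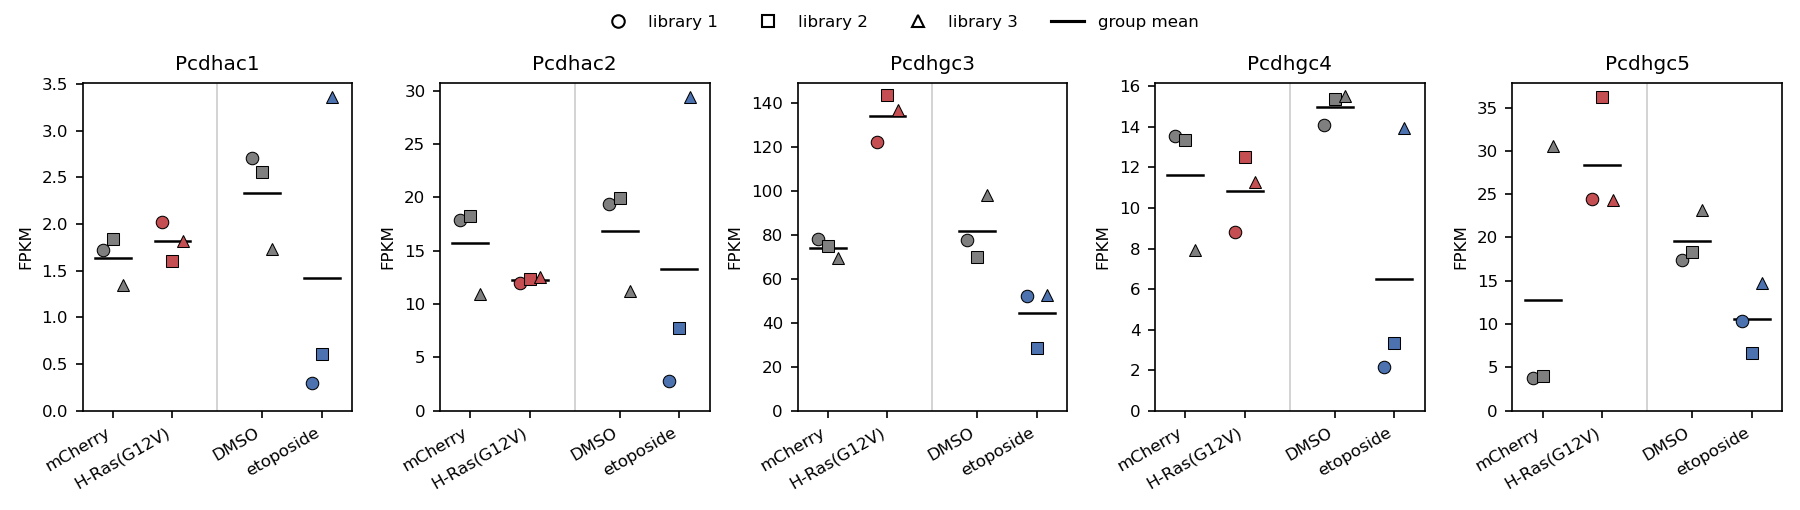
FPKM (vertical axes, starting at 0, a scale per gene) of the 5 C-type genes in the 12 libraries, with groups on the horizontal axes, symbols for the library number and bars for group means. Pcdhgc3 is between 122 and 143 FPKM in H-Ras(G12V) and at most 97.9 in any other library, while Pcdhgc5 splits the mCherry group into 3.82 and 4.06 against 30.6.

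Among the A and B types of the gamma cluster, 1 of 18 tested passed. Pcdhgb4, an isoform known to need a partner to reach the surface, was at 5.21, 4.51 and 5.06 FPKM with H-Ras(G12V) and at 2.70, 3.0 and 3.71 in mCherry. Its groups did not overlap, with a log2 difference of 0.52 ± 0.14 (SE, limma adjusted p = 0.0480). This call was lost when the libraries were scaled to a common sum (adjusted p = 0.101) or by median of ratios (adjusted p = 0.0633). Pcdhga11, the most abundant A-type gene in mCherry, was at 11.0, 10.8 and 9.81 FPKM against 18.5, 18.3 and 9.27 (adjusted p = 0.257). In this gene mCherry library 3 was below every H-Ras(G12V) library.

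Pcdhb9 and Pcdhb7 were the beta genes that passed. Pcdhb9 was at 5.01, 4.16 and 4.42 FPKM with H-Ras(G12V) and at 8.69, 8.41 and 7.46 in mCherry (log2 difference -0.73 ± 0.13, SE, limma adjusted p = 0.0134). Pcdhb7 was at 3.14, 2.57 and 2.64 FPKM against 5.68, 5.90 and 4.25 (log2 difference -0.72 ± 0.16, SE, adjusted p = 0.0247). In both genes the groups did not overlap, and mCherry library 3 was the lowest control. The share of Pcdhb9 in the beta sum was 7.96% to 9.41% with H-Ras(G12V) and 11.7% to 13.7% in mCherry. The other abundant beta genes did not pass. Pcdhb20 was at 5.79, 4.07 and 5.34 FPKM against 5.60, 5.62 and 5.48 (log2 difference -0.13, 95% interval -0.47 to 0.22, adjusted p = 0.579). Pcdhb17 was at 4.29, 3.90 and 4.51 FPKM against 5.63, 5.72 and 4.87, without overlap but with an adjusted p of 0.154.

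The number of genes called in the H-Ras(G12V) comparison rested on single libraries. Without mCherry library 3, limma called 23 of 52 genes, with 10 of 11 alpha genes lower, 4 beta genes lower and 1 higher, and 5 gamma genes lower and 3 higher, where 44.9% of all genes were called, 19.5% lower and 25.4% higher. Pcdhgc5 then passed with a log2 difference of 2.55 ± 0.18 (adjusted p = 7.77e-05). Without any other library 1 to 3 genes were called, and in 1 fit of all 12 libraries 0 of 51 were (8 at an unadjusted p under 0.05), Pcdhgc3 having an adjusted p of 0.0678.

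**Figure D3:**
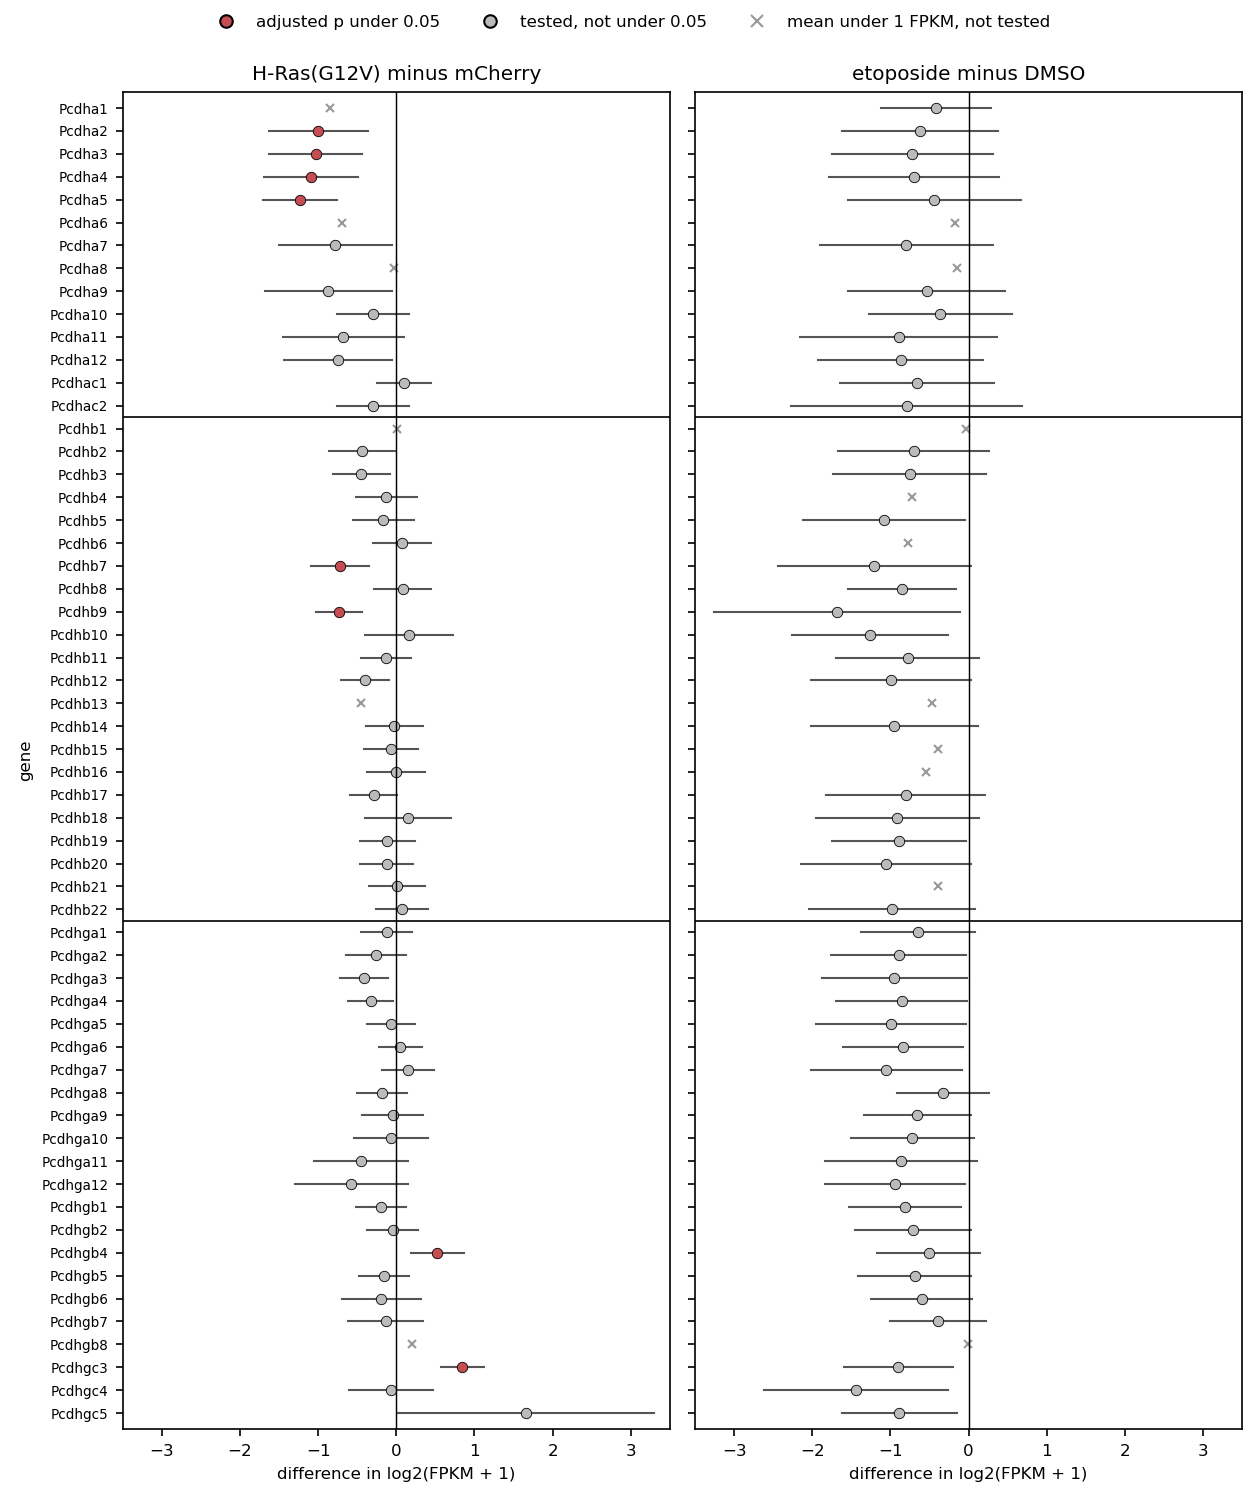
Difference in log2(FPKM + 1) for each of the 58 genes (vertical axis, ordered by cluster), with 95% intervals, for H-Ras(G12V) minus mCherry on the left and etoposide minus DMSO on the right; red points passed an adjusted p of 0.05, grey points did not, and crosses were not tested. The left panel has 6 red points below 0 and 2 above, and on the right all 58 differences are below 0 with wide intervals and none red.

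With etoposide all 58 genes had a negative difference, but none passed the test, and etoposide library 3 did not share the low levels of libraries 1 and 2. Of all 17800 genes listed, 7321 had a negative difference. The 58 signs come from the same libraries and are not independent of each other. Of the 48 genes tested, 0 passed an adjusted p of 0.05 in limma (lowest adjusted p = 0.353), and 16 had an unadjusted p under 0.05, all lower. Among all 12371 genes tested, 0.453% passed, all of them lower, and 6.52% were lower at an unadjusted p under 0.05. Median log2 differences were -0.68 over 12 alpha genes, -0.95 over 15 beta genes and -0.84 over 21 gamma genes, beside 0.09 over all genes tested. In 12 of the 58 genes the etoposide and DMSO libraries did not overlap, 10 of them among the 48 tested, and all 12 were lower. Of all genes tested, 8.17% were lower without overlap.

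The beta cluster had the lowest levels relative to DMSO. Summed over its 22 genes, the level was 7.16 and 7.31 FPKM in etoposide libraries 1 and 2, 65.6 in library 3, and 67.1, 60.1 and 47.2 in DMSO. The DMSO mean was 8.12 and 7.95 times the sums of libraries 1 and 2. No beta gene reached 1 FPKM in either library, against 20 genes in etoposide library 3 and 18 to 20 in the DMSO libraries.

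The low beta levels were shared by every gene of the cluster. All 22 were below the lowest DMSO library in etoposide libraries 1 and 2, where 34.2% and 27.8% of all genes tested were. In library 1, 21 of the 22 were at less than 1/2 of the lowest DMSO value, and in library 2 all 22 were, where 12.3% and 6.64% of all genes tested were. The ratio of the DMSO mean to the gene's own value ran from 4.53 to 16.6 in library 1. In library 2 it ran from 3.49 to 14.5, leaving out Pcdhb1, which was listed at 0.00 there and at most at 0.22 in any library.

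Pcdhb9, the most abundant beta gene in DMSO, was at 0.54 and 0.62 FPKM in etoposide libraries 1 and 2, at 10.9 in library 3 and at 9.82, 9.06 and 8.01 in DMSO. Its log2 difference over all 3 libraries was -1.68 ± 0.69 (SE, adjusted p = 0.356). Pcdhb7 was at 0.35, 0.45 and 5.13 FPKM against 5.18, 4.86 and 3.08 in DMSO (adjusted p = 0.359). Pcdhb20 was at 0.84, 0.60 and 4.89 FPKM against 5.35, 4.81 and 3.20 (adjusted p = 0.361). Each of these had the same split, with libraries 1 and 2 far below DMSO and library 3 inside or above its range.

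The alpha cluster differed from the beta cluster in that etoposide libraries 1 and 2 were not alike. Its sum was 10.6 FPKM in library 1, 26.6 in library 2, 86.4 in library 3, and 71.6, 68.9 and 39.7 in DMSO. In library 1 all 14 alpha genes were below every DMSO library, in library 2 11 were, and in library 3 none was. Over all 58 genes, 12 were below every DMSO library in etoposide library 3, where 27.3% of all genes tested were. Pcdhac2 was at 2.76, 7.79 and 29.4 FPKM against 19.4, 19.9 and 11.2 in DMSO, so that libraries 1 and 3 stood on opposite sides of the DMSO range (adjusted p = 0.528). Pcdha12 was at 1.70, 2.66 and 8.96 FPKM against 9.19, 7.67 and 5.78 (adjusted p = 0.393).

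The gamma sum was lower by a smaller ratio than the beta sum. The gamma sum was 123, 99.4 and 219 FPKM in etoposide libraries 1 to 3 and 249, 238 and 298 in DMSO, so that all 3 etoposide libraries were below every DMSO library. The ratio of the DMSO mean to the value in library 1 ran from 0.97 to 6.98 over the 22 genes, with a median of 2.71, and 21 genes stayed at 1 FPKM or more in every etoposide library. Pcdhga8, singled out after its values were seen, was at 9.21, 7.59 and 10.0 FPKM against 11.4, 10.3 and 12.7, a small difference without overlap (adjusted p = 0.517).

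The 3 gamma C-type genes had groups that did not overlap. Pcdhgc3 was at 52.1, 28.6 and 52.8 FPKM with etoposide and at 77.5, 69.8 and 97.9 in DMSO (log2 difference -0.90 ± 0.31, SE, adjusted p = 0.353). Pcdhgc5 was at 10.4, 6.61 and 14.8 FPKM against 17.4, 18.3 and 23.2 (log2 difference -0.88 ± 0.32, SE, adjusted p = 0.353). Pcdhgc4 was at 2.15, 3.35 and 13.95 FPKM against 14.1, 15.4 and 15.5 (log2 difference -1.44 ± 0.52, SE, adjusted p = 0.353). For Pcdhgc4 library 3 was just under the DMSO range, whereas Pcdhgc3 and Pcdhgc5 were clearly lower in library 3 as well.

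Leaving out etoposide library 3, limma called 42 of 48 genes, all lower, with 9 of 12 alpha, 15 of 15 beta and 18 of 21 gamma genes, where 31.8% of all genes were called and 13.4% were called lower. Pcdhb9 then had a log2 difference of -2.65 ± 0.25 (SE, adjusted p = 0.000168) and Pcdhgc4 of -2.11 ± 0.26 (adjusted p = 0.000656). Leaving out any other library, 0 of the 48 to 51 genes tested were called by limma, with 0 to 5 at an unadjusted p under 0.05.

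**Figure D4:**
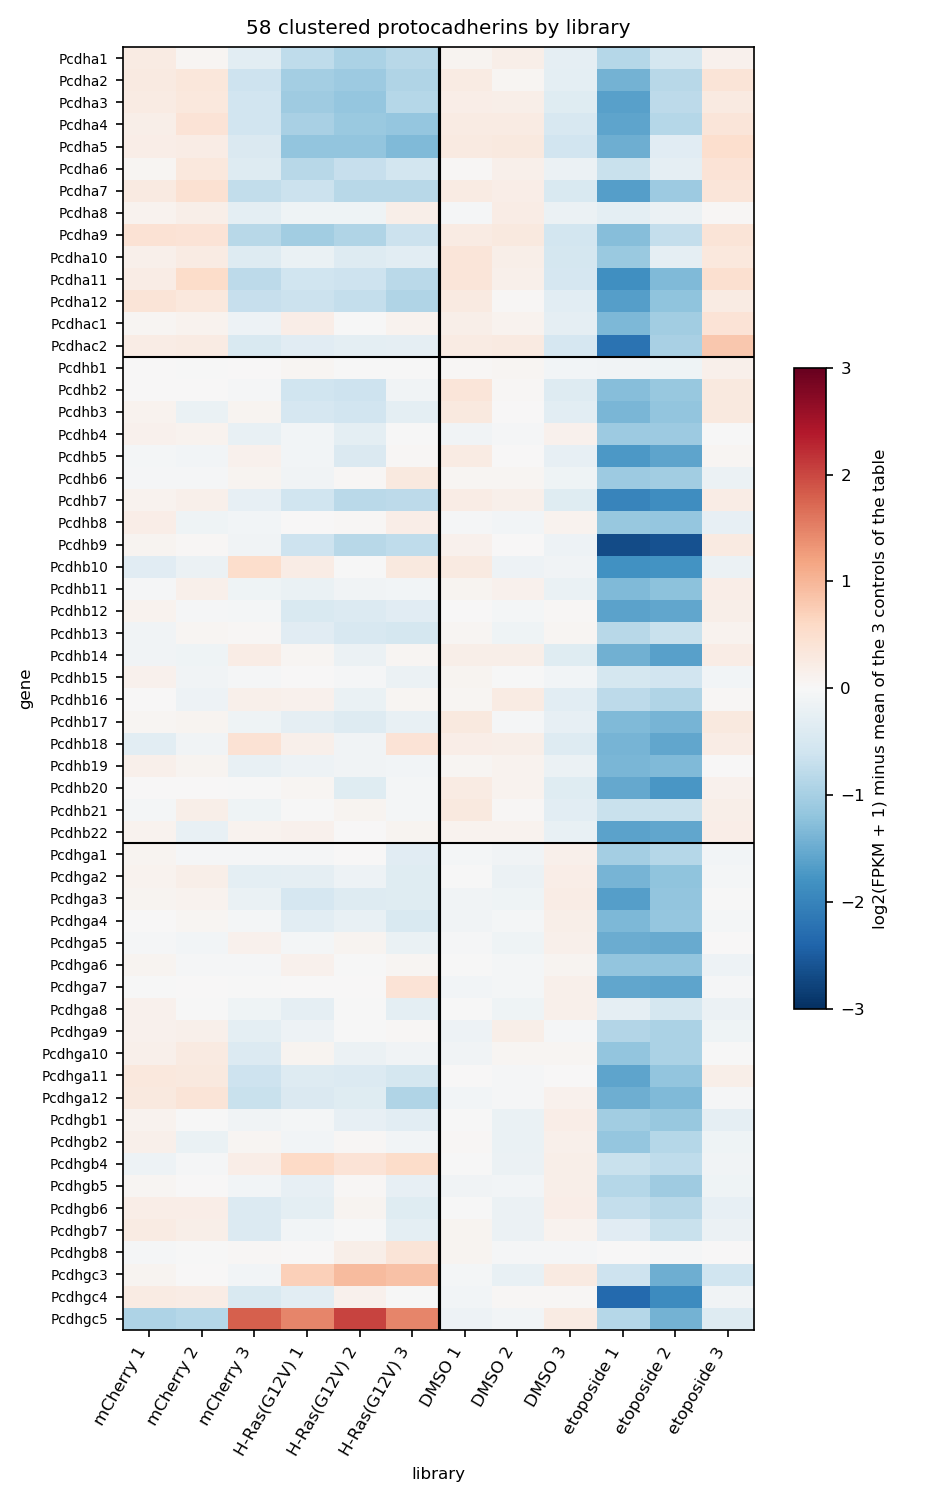
Each of the 58 genes (rows) in each of the 12 libraries (columns), coloured by log2(FPKM + 1) minus the mean of the 3 control libraries of the same table, blue for lower and red for higher. Etoposide libraries 1 and 2 are blue over nearly all genes and library 3 is not; with H-Ras(G12V) blue is found mostly in the alpha rows and red in the rows of Pcdhgc3 and Pcdhgc5.

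The balance within the gamma cluster also differed between groups. As an inverse Simpson number, the gamma signal was spread as over 4.46, 4.28 and 3.97 equally abundant genes with H-Ras(G12V) and as over 7.52, 7.71 and 7.33 in mCherry, without overlap. The 3 C-type genes together held 57.5%, 61.3% and 60.9% of the gamma sum with H-Ras(G12V) and 39.6%, 39.2% and 49.1% in mCherry. With etoposide the same number was 4.91, 8.76 and 10.7, on both sides of the 7.37 to 8.55 of DMSO, and the C-type share was 52.6%, 38.8% and 37.2% against 43.8%, 43.5% and 45.8%. These are descriptions without a test, and Pcdhgc3 itself enters both.

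The difference between the models was itself tested, by subtracting the etoposide effect from that of H-Ras(G12V) over the 12 libraries. The models share no control library. Pcdhgc3 was the gene of the 51 tested that passed, where 3.76% of 12646 genes tested did and 3.4% did so with a higher H-Ras(G12V) effect. Its log2 difference of effects was 1.75 ± 0.33 (SE, limma adjusted p = 0.0105), from 0.85 with H-Ras(G12V) and -0.90 with etoposide. Pcdhgb4 (log2 difference of effects 1.03, adjusted p = 0.0934) and Pcdhgc5 (2.54, adjusted p = 0.121) did not pass. The median difference of effects was -0.15 over the alpha genes, 0.81 over the beta genes and 0.61 over the gamma genes tested, beside -0.06 over all genes. Without etoposide library 3, 33 of 50 genes passed, 16 of them beta, 16 gamma and 1 alpha, where 22.6% of all genes did. Without mCherry library 3, 2 passed, and without any other library 1.

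No gene on the list of cohesin, CTCF and loop extrusion passed in either model, though changes could have been missed, above all with etoposide. Of 11 genes of cohesin, CTCF and loop extrusion, 0 passed with H-Ras(G12V) (1 at an unadjusted p under 0.05, limma) and 0 with etoposide (0 at an unadjusted p under 0.05). Ctcf, which binds protocadherin promoters, was at 27.4, 22.7 and 29.2 FPKM with H-Ras(G12V) and at 34.1, 33.5 and 29.0 in mCherry (log2 difference -0.28, adjusted p = 0.197). With etoposide it was at 20.7, 27.0 and 17.3 FPKM against 23.6, 21.2 and 14.7 (adjusted p = 0.836). The cohesin subunit Rad21 had log2 differences of 0.06 (adjusted p = 0.843) and 0.00 (adjusted p = 0.998). For Nipbl, which loads cohesin, they were 0.02 and 0.58, and for Wapl, which releases it, 0.05 and 0.60, with adjusted p from 0.374 to 0.932. With etoposide Nipbl alone of the 11 was higher without overlap, at 4.30, 3.03 and 2.52 FPKM against 1.95, 2.42 and 1.21. Of all 12371 genes tested, 945 were. With H-Ras(G12V) 1 of the 11 was lower without overlap, beside 16.6% of all genes tested. The list summed to 157, 160 and 145 FPKM with etoposide and to 174.6, 172.5 and 94.8 in DMSO.

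Among 15 tested genes of silencing and DNA methylation, 2 passed as higher and 1 as lower with H-Ras(G12V), beside 10.3% and 6.67% of all genes tested. With etoposide 0 passed (2 at an unadjusted p under 0.05, limma). Dnmt1, the maintenance DNA methyltransferase, was at 35.7, 41.2 and 42.2 FPKM with H-Ras(G12V) and at 28.1, 27.8 and 23.4 in mCherry (log2 difference 0.57, adjusted p = 0.0278). Rest, a repressor of neuronal genes, was at 3.35, 3.51 and 3.94 FPKM against 2.14, 2.02 and 1.95 (log2 difference 0.60, adjusted p = 0.0237). With etoposide Rest was at 9.35, 5.63 and 1.48 FPKM against 1.60, 2.30 and 0.67 in DMSO (adjusted p = 0.357). Libraries 1 and 2 were above every DMSO library, and library 3 was within the DMSO range. Any relation of Rest to the protocadherin levels was not tested. Smchd1, which silences clustered protocadherins, had a log2 difference of -0.04 with H-Ras(G12V) (adjusted p = 0.931) and 0.16 with etoposide (adjusted p = 0.84). Dnmt3b, which methylates their promoters in early development, was at most 0.75 FPKM in any library and was not tested.

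Signalling partners and other cadherins moved in both directions with H-Ras(G12V). Of all 12724 genes tested, 17% passed, 10.3% as higher and 6.67% as lower. Of 18 genes of signalling and processing 3 passed, a share near that of all genes. Wasf2 was higher, and Nckap1 and Nlgn1 were lower. Wasf2 and Nckap1 encode parts of the WAVE actin complex, and Nlgn1 encodes a synaptic adhesion protein. Of 11 tested non-clustered protocadherins, which are separate genes with no shared exons, Pcdh11x and Pcdh10 were higher (log2 difference 1.55 and 0.65) and Pcdh19 and Pcdh20 were lower (-1.25 and -1.20). Of 13 tested classical and type II cadherins, 4 were higher and 3 lower, Cdh22 having the largest difference (2.23) and Cdh8 the most negative (-1.39). None of these lists had a gene that passed with etoposide in limma. There 2 genes of each list had an unadjusted p under 0.05, beside 1724 of all 12371 genes tested.

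Levels of cell type markers also differed between groups, and in bulk RNA fewer cells of a type and less RNA per cell cannot be told apart. The 16 neuron markers summed to 2649, 2801 and 2327 FPKM with H-Ras(G12V) and to 3963, 4136 and 3140 in mCherry. In limma 3 of the neuron markers passed as lower and 1 as higher, beside 6.67% and 10.3% of all genes tested. With etoposide they summed to 1479, 2843 and 4583 FPKM, against 3924, 3871 and 4081 in DMSO. The etoposide libraries had the same order in the alpha sums. The DMSO libraries did not, since DMSO library 3 had the highest neuron marker sum and the lowest alpha sum (39.7 FPKM). Of 11 astrocyte markers 3 passed as higher with H-Ras(G12V), and their sum was 3750, 3350 and 2605 FPKM against 1206, 1212 and 3169 in mCherry. Of 10 tested oligodendrocyte lineage markers 7 passed as higher, with sums of 1106, 947 and 1160 FPKM against 300, 232 and 784. For astrocyte markers mCherry library 3 was within the H-Ras(G12V) range, as it was for Pcdhgc5, and without Gfap it was above that range. For the oligodendrocyte lineage it was between the other mCherry and the H-Ras(G12V) libraries.

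With etoposide the astrocyte sum was 991, 631 and 901 FPKM against 1418, 1052 and 1630 in DMSO. In limma 0 of 10 tested genes passed, with 5 lower and 1 higher at an unadjusted p under 0.05. Of all 12371 genes tested, 806 were lower and 918 higher at that level. The higher astrocyte marker was Gja1, at 378, 287 and 60.8 FPKM against 76.8, 59.0 and 59.8 in DMSO, so that libraries 1 and 2 alone were high. The oligodendrocyte lineage sum was 119, 78.0 and 220 FPKM against 719, 565 and 925. Of its 9 tested genes 4 passed as lower, beside 0.453% of all genes tested, all of them lower. Unlike the beta genes, this list was low in all 3 etoposide libraries, and Sox10, Gpr17 and Mag were at or below 0.01 FPKM in library 3. Neural progenitor markers summed to 992, 536 and 854 FPKM with etoposide against 2434, 1907 and 2038 in DMSO. Of 8 tested genes 2 passed as lower, beside the same 0.453% of all genes tested. In DMSO and in etoposide library 3 the progenitor sum was mostly Fabp7, but in etoposide libraries 1 and 2 it was not. Without Fabp7 the direction turned in etoposide libraries 1 and 2, at 872, 475 and 236 FPKM against 250, 296 and 309 in DMSO. Vim was at 752, 382 and 186 FPKM against 149, 210 and 214 in DMSO, and Nes was at 59.3, 45.4 and 15.2 against 20.5, 22.6 and 15.3, neither passing (adjusted p = 0.368 and 0.405). With H-Ras(G12V) 3 of the 8 tested progenitor markers passed as higher, beside 10.3% of all genes tested. Of the 10 fibroblast and mural markers 9 passed as lower with H-Ras(G12V), beside 6.67% of all genes tested. Their sum was 40.0, 37.9 and 41.5 FPKM against 278, 217 and 189 in mCherry. With etoposide 0 of the 10 passed in limma (0 at an unadjusted p under 0.05). The 8 microglia markers summed to between 4.79 and 34.6 FPKM in 10 libraries and to 105 and 80.0 in etoposide libraries 1 and 2. In those libraries 97.4 and 77.5 FPKM of the sum were Cd68, and the other 7 markers summed to 8.02 and 2.57, within the 1.91 to 9.76 of the other libraries. Cx3cr1 was at 0.09 FPKM or less in both. The part of any of these markers in the protocadherin results was not tested.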

How the data were processed

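RNA was measured by mRNA sequencing after oligo-dT enrichment, per the labels' protocols. The authors deposited FPKM per gene and library, 1 table per model, per the file headers. HISAT, Bowtie2 and RSEM appear in the submitters' processing notes without version or role, as does the genome build mm9. The tables were treated as normalised separately, and all 12 columns were mapped to libraries by name.

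Here log2(FPKM + 1) was fitted with limma 3.58.1 in R 4.3.3 (lmFit, then eBayes with an intensity trend). Genes entered at a mean of 1 FPKM or more over their table, with Benjamini-Hochberg adjustment over all genes tested and a threshold of 0.05. Fold changes on this scale understate changes of low genes. A gene that is high in 1 group can pass the filter through that group alone. The contrast between models used genes in both tables. The procedure was tested on simulated data with 200 changed genes per comparison. The simulated noise was independent between genes, whereas here whole libraries stood apart, so the shares recovered are only a rough guide. Changes of log2 size 1 were recovered in 55% with H-Ras(G12V), 6% with etoposide and 10% for the difference between models. For log2 size 2 the shares were 86%, 58% and 62%. A gene that did not pass, above all with etoposide, may therefore still have changed. Sums, shares and ratios use FPKM without a test. Exon sharing came from GENCODE M21, a later build than mm9, so no coordinates are given.

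The tables hold no counts. Depth read from steps of low values was unstable (for DMSO library 2, 26600000 fragments over all genes used but 8900000 and 11900000 in separate gene sets), so the depth is unknown and no counting interval is given.

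The genes and lists were chosen with earlier results of these data known. Named genes were the C-types, the 3 most abundant per cluster and table, up to 5 called per cluster, direction and comparison, fixed list genes and up to 3 called per list, direction and comparison. Pcdhb1, Pcdhga8, Gpr17, Mag, Sox10, Dcx, Cx3cr1, Cd68, Gja1, Gfap, Fabp7, Vim and Nes were singled out after their values were seen. Alternatives changed the pseudocount, filter, scaling, trend, replicate block, averaging of mCherry libraries 1 and 2, joint fitting and the libraries used. Results on some genes of the lists are not reported here.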

Additional observations from a re-analysis of the deposited data

Results flagged for a closer look

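The H-Ras(G12V) effect and the etoposide effect differed by the contrast over the 12 libraries (limma, adjusted p under 0.05) for the following genes, each value being the log2 H-Ras(G12V) effect minus the log2 etoposide effect. Of the clustered protocadherins, Pcdhgc3 had a difference of 1.75. It was higher in all 3 H-Ras(G12V) libraries than in any mCherry library, and lower in all 3 etoposide libraries than in any DMSO library.

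Among the other cadherin genes, Cdh22 had a difference of 2.93, Cdh20 of 2.46 and Cdh13 of 1.77. Of the non-clustered protocadherins, Pcdh11x had a difference of 2.18, Pcdh15 of 1.98 and Pcdh10 of 1.32. Dnmt1, the maintenance DNA methyltransferase, had a difference of 1.27.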

How the results depend on the processing

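Counts of genes called depended on which libraries entered. For H-Ras(G12V) against mCherry (8 protocadherins and 2161 genes), leaving out each library in turn gave 1 to 23 protocadherins and 496 to 5716 genes. A mean of at least 5 FPKM gave 2 protocadherins of 19 tested, mCherry libraries 1 and 2 averaged gave 2 and 630 genes, and 1 fit of all 12 libraries gave 0 and 496. Leaving out library 3 of both groups, chosen after seeing the data, gave 23 and 5299. For etoposide (0 and 56), leaving out each library gave 0 to 42 and 4 to 3938. The stricter mean gave 22 genes, the joint fit 194, and leaving out library 3 of both groups, also chosen afterwards, 42 and 4524. For the difference between models (1 and 475), leaving out each library gave 1 to 33 and 277 to 2868, the stricter mean 256 genes, averaged mCherry libraries 282, and leaving out mCherry library 3 and etoposide library 3, also chosen afterwards, 34 and 3947. The cause of these changes was not tested. No named gene that passed had its direction reversed. Pcdhgc3 passed with H-Ras(G12V) in 10 of 11 other settings and without each of the 6 libraries (adjusted p 0.000916 to 0.0678), and the difference between models in all 22 alternatives (0.00214 to 0.036).

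Other scaling moved the share of higher genes among those called with H-Ras(G12V) from 60.7% to 39.3% (common sum) and 50.7% (median of ratios), and the median of all genes from 0.05 to -0.07 and -0.00. The alpha median was then -0.89 and -0.83.

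Whether replicate numbers pair the libraries is not known here. Same-numbered deviations correlated at -0.04, 0.03 and 0.12 in the H-Ras(G12V) table and at -0.27, -0.17 and -0.15 in the etoposide table. Deviations from a mean of 3 libraries are not independent of each other, so these values cannot settle the pairing. With the number as a replicate block, 6, 0 and 1 protocadherins and 1681, 12 and 345 genes were called with H-Ras(G12V), with etoposide and for the difference between models.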
